A study of Mus musculus with 32 samples.

Results

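Peaks of histone H3 lysine 9 trimethylation (H3K9me3) at the ends of protein-coding genes were examined in male germ cells of the mouse. A peak belonged to the set where at least 1 bp of it lay within 1 kb of the first or last base of a RefSeq protein-coding gene on the autosomes of GRCm38 (mm10). Of 611609 peaks in 8 deposited lists, 23934 met this rule, and the other 557926 autosomal peaks served for comparison. The study mapped H3K9me3 by chromatin immunoprecipitation and sequencing to ask how loss of Morc1 affects gonocyte chromatin. Germ cells were isolated from testes of mice that carry Mvh-Venus, a reporter transgene present in every group. The groups were Morc1 (+/-) mice, called het, and Morc1 (-/-) mice, called KO. Each genotype was sampled at a pair of embryonic stages, E13.5 and E16.5, and a pair of postnatal stages, P0 and P3, all in days. Each of the 8 groups had 2 H3K9me3 samples (antibody from Active Motif) and 1 peak list. No group without a mutant Morc1 allele was analysed, and the lists do not show how many animals gave each sample. The 16 histone H3 samples had no list and were not used. With 1 list per group no value has a replicate error, so the counts below describe these lists and no p-value was computed.

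H3K9me3 is a mark of heterochromatin that histone methyltransferases such as Setdb1 place on repeats and on genes kept silent, and HP1 proteins bind it. At active genes the promoter is usually free of the mark, while clusters of olfactory receptor, vomeronasal receptor and zinc finger genes often carry it over long stretches. Morc1 encodes a nuclear ATPase of the male germline that takes part in silencing of transposons. Gonocytes are the male germ cells between sex determination and the first spermatogonia, a time in which DNA methylation is set anew.

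Promoters of 7 genes are shown because they stand for the patterns described below. The sequences come from RefSeq on GRCm38.p6, run 5′ to 3′ on the gene's strand from 250 bases before to 50 after the start, and have CpG dinucleotides in capitals. Mael, Sycp1 and Slc25a31 are germline genes whose promoters lay under a peak at E13.5 in both genotypes and in no later list. Mael lies at chr1:166238695-166238994 (minus strand), Sycp1 at chr3:102936051-102936350 (minus) and Slc25a31 at chr3:40708621-40708920 (plus). The Ddx4 promoter, chr13:112652261-112652560 (minus), lay under a peak in 7 lists and not in the E16.5 KO list. The Hoxa6 promoter, chr6:52208623-52208922 (minus), was overlapped in the E13.5 KO list only. Vmn2r60 (chr7:42116221-42116520, plus) was overlapped in all 8 lists, and Olfr502 (chr7:108523899-108524198, minus) in the het lists of P0 and P3 only. Mael, Sycp1, Slc25a31 and Hoxa6 were chosen after their values were seen.
Mael: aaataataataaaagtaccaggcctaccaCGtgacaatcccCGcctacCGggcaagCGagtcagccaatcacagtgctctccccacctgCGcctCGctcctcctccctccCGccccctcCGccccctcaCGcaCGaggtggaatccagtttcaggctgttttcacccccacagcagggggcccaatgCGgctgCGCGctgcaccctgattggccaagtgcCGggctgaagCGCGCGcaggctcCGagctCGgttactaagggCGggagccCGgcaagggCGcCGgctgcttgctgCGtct
Sycp1: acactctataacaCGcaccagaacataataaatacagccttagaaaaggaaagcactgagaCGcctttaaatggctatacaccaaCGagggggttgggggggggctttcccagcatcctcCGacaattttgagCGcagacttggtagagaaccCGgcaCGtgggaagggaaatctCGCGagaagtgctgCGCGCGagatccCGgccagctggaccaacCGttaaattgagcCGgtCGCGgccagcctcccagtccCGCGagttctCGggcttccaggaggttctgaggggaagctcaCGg
Slc25a31: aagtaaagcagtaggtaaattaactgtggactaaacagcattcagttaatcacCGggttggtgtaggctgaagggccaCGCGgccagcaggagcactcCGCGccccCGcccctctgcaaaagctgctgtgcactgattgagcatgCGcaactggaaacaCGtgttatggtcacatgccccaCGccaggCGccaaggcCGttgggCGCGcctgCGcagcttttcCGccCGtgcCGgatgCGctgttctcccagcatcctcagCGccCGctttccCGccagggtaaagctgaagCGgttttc
Ddx4: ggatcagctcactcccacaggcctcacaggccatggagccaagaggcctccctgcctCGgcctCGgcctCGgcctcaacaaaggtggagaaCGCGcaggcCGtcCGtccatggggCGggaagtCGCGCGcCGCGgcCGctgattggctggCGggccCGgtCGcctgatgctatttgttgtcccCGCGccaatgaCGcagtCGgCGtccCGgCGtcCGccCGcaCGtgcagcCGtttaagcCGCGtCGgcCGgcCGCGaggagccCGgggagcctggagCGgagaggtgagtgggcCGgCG
Hoxa6: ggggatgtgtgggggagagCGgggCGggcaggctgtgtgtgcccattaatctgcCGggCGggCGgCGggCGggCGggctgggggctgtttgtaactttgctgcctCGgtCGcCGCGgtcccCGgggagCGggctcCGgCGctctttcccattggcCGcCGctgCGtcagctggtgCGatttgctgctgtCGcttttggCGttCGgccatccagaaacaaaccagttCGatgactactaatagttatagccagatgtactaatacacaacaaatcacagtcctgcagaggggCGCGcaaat
Vmn2r60: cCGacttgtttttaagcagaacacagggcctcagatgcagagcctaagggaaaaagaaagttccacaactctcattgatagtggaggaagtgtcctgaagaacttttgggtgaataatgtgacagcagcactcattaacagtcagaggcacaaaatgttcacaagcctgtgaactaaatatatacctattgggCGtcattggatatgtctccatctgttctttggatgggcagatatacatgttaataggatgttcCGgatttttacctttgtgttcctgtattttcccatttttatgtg
Olfr502: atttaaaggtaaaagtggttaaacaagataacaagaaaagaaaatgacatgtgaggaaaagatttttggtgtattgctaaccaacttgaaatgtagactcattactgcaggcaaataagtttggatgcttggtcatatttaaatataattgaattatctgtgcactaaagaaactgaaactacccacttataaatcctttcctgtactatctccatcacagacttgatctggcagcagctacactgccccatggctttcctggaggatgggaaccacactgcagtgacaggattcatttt
The first 5 of these promoters held 24, 21, 22, 38 and 26 CpG in 300 bases. Vmn2r60 held 3 and Olfr502 held 0. Wherever one of the 7 promoters was overlapped, the peak covered all 300 bases.

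Peaks at gene ends made up a small share of each list. At E13.5 they numbered 2340 of 50191 autosomal peaks in het (4.66%, 95% Wilson interval 4.48 to 4.85) and 2923 of 55136 in KO (5.30%, 5.12 to 5.49). At E16.5 they numbered 2850 of 74722 in het (3.81%, 3.68 to 3.95) and 2700 of 70487 in KO (3.83%, 3.69 to 3.97). The intervals of het and KO do not overlap at E13.5, and they do at E16.5. The P0 lists held 3042 of 82082 in het (3.71%, 3.58 to 3.84) and 3396 of 89020 in KO (3.81%, 3.69 to 3.94). The P3 lists held 3196 of 77632 in het (4.12%, 3.98 to 4.26) and 3487 of 82590 in KO (4.22%, 4.09 to 4.36). The intervals cover counting error only and treat neighbouring peaks as independent. The share was highest in the 2 E13.5 lists, although these had the fewest peaks in all.

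The peaks at gene ends were longer than the others in every list. Their shortest median length was 2324 bp (E13.5 het) and their longest 3549 bp (E16.5 het). For all other autosomal peaks the median ran from 1847 bp (E13.5 het) to 2541 bp (P3 KO). A longer peak reaches a window more easily, so part of this difference follows from the rule. Few peaks touched several genes: between 5.69% (P0 het) and 7.77% (E13.5 KO) reached the windows of 2 or more, and the most genes reached by 1 peak was 7. All windows together spanned 74.8 Mb, or 3.04% of the autosomes up to the last peak. Peaks covered less of this territory than of the autosomes. At E13.5 the covered share was 4.36% of the windows against 6.49% of the autosomes in het, and 5.50% against 7.39% in KO. At E16.5 it was 5.78% against 11.9% in het, and 5.47% against 10.9% in KO. The gap between windows and autosomes was thus wider at E16.5. The same comparison gave 5.90% against 12.6% for P0 het and 6.47% against 13.2% for P0 KO. For P3 it gave 6.06% against 11.3% in het and 6.75% against 12.3% in KO.

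A gene was called where a peak reached either of its 2 windows. Among 20665 autosomal protein-coding genes, 2363 (11.4%) were called in E13.5 het and 2963 (14.3%) in E13.5 KO. At E16.5 the counts were 2812 (13.6%) in het and 2664 (12.9%) in KO. At P0 they were 3002 (14.5%) in het and 3361 (16.3%) in KO, and at P3 3197 (15.5%) and 3483 (16.9%). In all, 6271 genes (30.3%) were called in at least 1 list and 14394 in none. Neighbouring genes can share a peak, so calls in gene clusters are not independent.

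**Figure D1:**
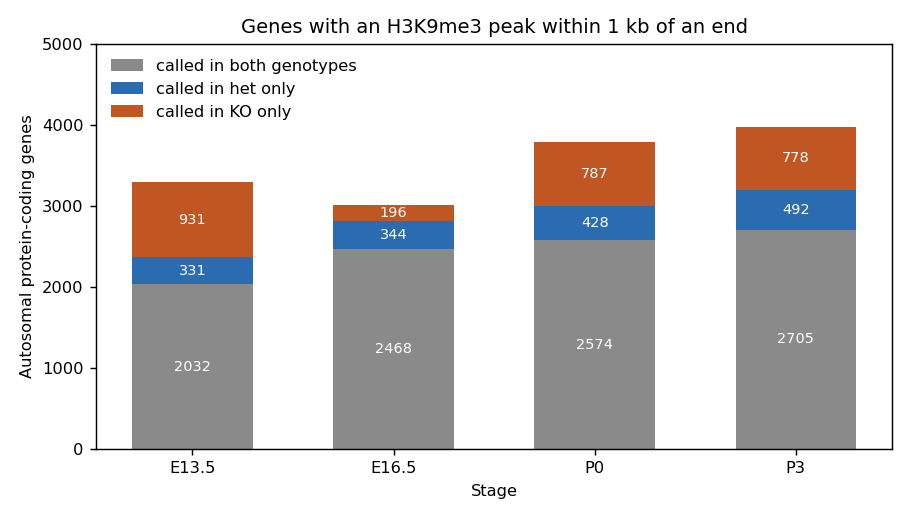
Autosomal protein-coding genes with a peak within 1 kb of an end, by stage (x axis) and number of genes (y axis), split into genes called in both genotypes (grey), in het only (blue) and in KO only (orange). KO-only genes outnumber het-only genes at E13.5, P0 and P3, and the order is the opposite at E16.5, with 196 against 344.

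Het and KO shared most called genes at each stage, and the genes called in 1 genotype only were mostly KO-only, except at E16.5. At E13.5, 2032 genes were called in both lists, 331 (1.60% of all genes) in het only and 931 (4.51%) in KO only. At E16.5 the 2 lists shared 2468 genes, with 344 (1.66%) in het only and 196 (0.948%) in KO only. At P0, 2574 were shared, 428 (2.07%) were het-only and 787 (3.81%) were KO-only. KO-only genes were the more numerous at both postnatal stages. At P3, 2705 were shared, 492 (2.38%) were het-only and another 778 (3.76%) KO-only. Per het-only gene there were 2.81, 0.570, 1.84 and 1.58 KO-only genes at the 4 stages. With equal peak numbers per stage, the longest kept, these values were 1.97, 0.756, 1.35 and 1.30. The lists themselves differed in size in the same directions. In stage order, the length of autosome covered by peaks in KO was 1.14, 0.918, 1.05 and 1.09 times that in het. Within the windows the ratio was 1.26, 0.946, 1.10 and 1.11. The E13.5 difference was therefore greater at gene ends than over the autosomes as a whole. What part read depth or the calling threshold had in these ratios was not tested, since the lists give neither.

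Genes called in 1 genotype had shorter cover than shared genes. The median covered window length was 0.743 kb for het-only and 0.819 kb for KO-only genes at E13.5, against 1.26 kb (het) and 1.54 kb (KO) for shared genes. At P3 it was 0.793 and 0.746 kb, against 1.496 and 1.70 kb. Cover of 2 kb or more in 1 genotype and none in the other was rare. It was found for 9 het-only and 57 KO-only genes at E13.5, 10 and 2 at E16.5, 48 and 22 at P0, and 32 and 46 at P3. At P0 the genes with this extensive cover thus leaned to het, while the total of KO-only genes was greater.

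The same comparison by peak set the gene ends beside the rest of the autosomes. At E13.5, 276 of the het peaks at gene ends (11.8%) and 779 of the KO peaks (26.7%) had no base in common with the other genotype's list. For other autosomal peaks these shares were 11.3% and 21.2%. At E16.5 the unshared peaks at gene ends were 214 (7.51%) in het and 133 (4.93%) in KO, against 13.9% and 6.79% of the other peaks. From this stage on the gene ends had the lower shares. At P0 they were 316 (10.4%) and 568 (16.7%), against 11.7% and 19.7%. At P3 they were 371 (11.6%) and 515 (14.8%), against 13.8% and 20.8%. Unshared peaks were thus more frequent at gene ends than elsewhere in the E13.5 KO list, and less frequent in the 6 later lists. Counts of unshared peaks at gene ends moved with equal peak numbers per stage, the longest kept. They were then 341 (het) and 591 (KO) at E13.5, and 182 and 174 at E16.5. The P0 counts were 375 and 436, and the P3 counts 418 and 427. Peaks at gene ends were longer in every list, and a longer peak meets another list more easily. What part length had in these shares was not tested.

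A core of genes recurred over all stages. All 8 lists called 1064 genes (5.15%), het lists of all 4 stages called 1206 (5.84%), and KO lists of all 4 stages called 1306 (6.32%). Among the genes in all 8 lists, 28.0% were olfactory or vomeronasal receptor genes, which make up 7.06% of all genes and 12.1% of the 6271 genes called in at least 1 list. Genes called in a single list numbered 1625, of which 542 were in the E13.5 KO list. Another 372 (1.80%) were called in both E13.5 lists and in no later one, and 350 in all 6 lists from E16.5 on and not at E13.5. The 4 postnatal lists alone shared 304 genes (1.47%), and the 4 embryonic lists alone shared 92 (0.445%).

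The step from E13.5 to E16.5 changed the called genes most. Of the E13.5 genes, 68.0% in het and 57.2% in KO were called at E16.5. From E16.5 to P0 the share was 73.8% in het and 80.0% in KO, and from P0 to P3 it was 77.9% and 79.1%. Peaks at gene ends departed from the rest of the list at this first step. Of the E13.5 peaks at gene ends, 71.3% in het and 61.6% in KO met a peak at E16.5, against 87.5% and 83.2% of the other E13.5 peaks. From E16.5 to P0, 82.9% (het) and 88.2% (KO) of those at gene ends met a peak, against 78.0% and 84.2% of the others. From P0 to P3 these values were 84.3% and 84.2%, against 78.4% and 78.6%. The greater length of peaks at gene ends was not taken into account in these shares.

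The genes with the fullest cover belonged to clustered families. The 10 genes ranked first had 4.002 kb of 4.002 kb covered in each of the 8 lists. They were Skint6, Skint10 and Skint2, butyrophilin-like genes of the family named for selection of skin T cells, and the pheromone receptors Vmn2r60, Vmn2r16 and Vmn2r61. The others were the Mas-related receptor gene Mrgprx2, the zinc finger gene Zfp735, the placental prolactin relative Prl7a2 and the organic anion transporter relative Slc22a26. Their promoters were poor in CpG: the ratio of observed to expected CpG was at most 0.251 in all 10.

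Stage patterns were led by a mixed set of genes. Among genes called in all 4 postnatal lists and no embryonic one, Ivl, which encodes involucrin of the cornified envelope, had 2.96 and 2.50 kb covered in P0 het and KO and 2.61 and 2.36 kb in P3 het and KO. H2-Ob, a class II histocompatibility gene, had 2.24, 2.80, 3.39 and 3.10 kb in that order. Olfr1254 had 2.02, 2.11, 2.18 and 2.15 kb in the same lists. Cover was 2.001 kb in all 4 lists for Atp13a5, Cd84, Esp1 and Fkbp4, while the chaperone gene Dnajb11 had 2.78 kb in P0 het and 2.001 kb in the other 3. Among genes of the embryonic lists alone, the imprinted gene Mkrn3 had 4.002 kb covered in both E13.5 lists and 2.001 kb (het) and 1.55 kb (KO) at E16.5. Mn1, a transcriptional regulator, had 2.001 kb in each of the 4 lists. Ifitm7 had 2.001, 1.99, 1.78 and 1.90 kb, and Kpna7, an importin of oocytes and early embryos, 1.65, 1.87, 2.001 and 2.001 kb. Acsl5, Zfp93, Pcdhb11 and Scara5 had between 1.29 and 2.05 kb in the embryonic lists.

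Where the strand was known, the last base of the gene was called more often than its start. This could be counted for 16457 genes. Start windows were called for 1097 genes (6.67%) in E13.5 het, 1432 (8.70%) in E13.5 KO, 1213 (7.37%) in E16.5 het and 1153 (7.01%) in E16.5 KO. Postnatal start windows were called for 1223 (7.43%) in P0 het, 1342 (8.15%) in P0 KO, 1162 (7.06%) in P3 het and 1286 (7.81%) in P3 KO. The E13.5 KO list thus had the most called starts. Windows at the last base were called for 1298 genes (7.89%) in E13.5 het, 1507 (9.16%) in E13.5 KO, 1769 (10.7%) in E16.5 het and 1665 (10.1%) in E16.5 KO. They were called for 1898 (11.5%) in P0 het, 2126 (12.9%) in P0 KO, 2060 (12.5%) in P3 het and 2230 (13.6%) in P3 KO. The number of ends per start was lowest in the E13.5 KO list, at 1.05, and 1.183 in E13.5 het. It was 1.46 and 1.44 at E16.5, 1.55 and 1.58 at P0, and 1.77 and 1.73 at P3 in het and KO.

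Along the distance from the gene, the level at the start was below that 10 kb before it in all 8 lists. At 10 kb before the start, 5.32% of genes were covered in E13.5 het and 6.42% in E13.5 KO, against 4.08% and 5.37% at the start itself. In P0 het the values were 9.73% and 4.86%, and in P0 KO 10.5% and 5.27%. The level at the start was 0.767 (het) and 0.836 (KO) of that 10 kb before it at E13.5. From E16.5 on this ratio lay between 0.498 (P3 het) and 0.572 (E16.5 het) in the 6 lists. The level at the start was also below that 10 kb after it in 7 lists, at 0.634 (P3 het) to 0.922 (E13.5 het) of it, and these lists had their lowest level 250 to 1250 bp after the start. The E13.5 KO list had no such dip: 5.15% of genes were covered 10 kb after the start, and its lowest level, 4.88%, lay 5 kb after it. At the last base the level was above that 10 kb before it, inside or before the gene, in each list, by 1.05 (P0 KO) to 1.19 times (P3 het). It was below that 10 kb after the gene in each list, at 0.786 (P0 het) to 0.985 (P3 KO) of it.

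**Figure D2:**
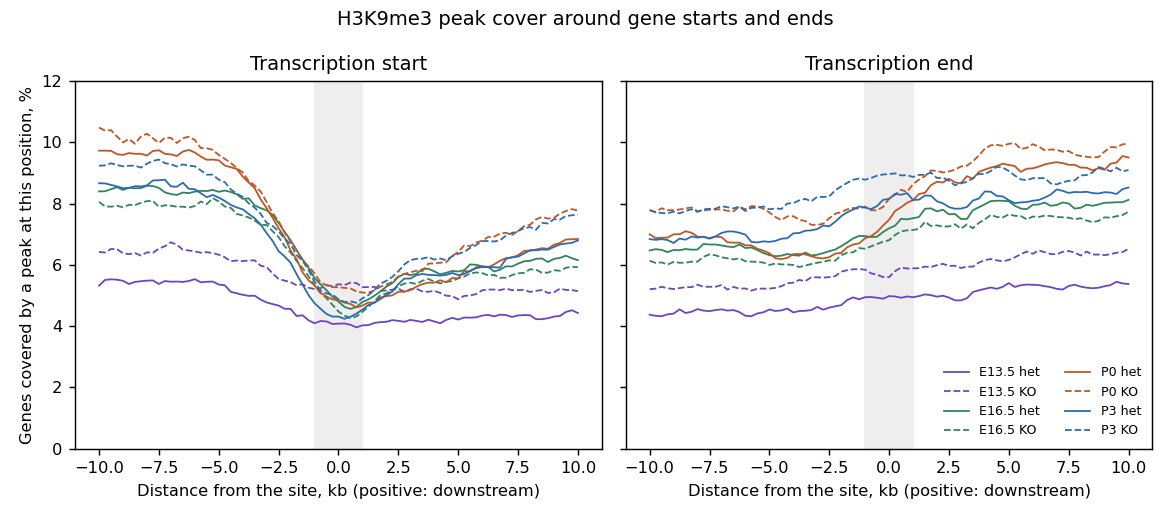
Share of 16457 genes covered by a peak (y axis, %) against the distance from the first base (left) and the last base (right) in kb, negative before the site in the direction of transcription; solid lines are het, dashed lines KO, colours are stages and the grey band marks the window of 1 kb on either side. The start lies lower against the sequence 10 kb before it in the 6 later lists than in the 2 E13.5 lists, and E13.5 KO has its lowest level 5 kb after the start.

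The promoters under peaks differed in sequence between stages. A promoter, here the 300 bases of RefSeq, was called CpG-rich where the ratio of observed to expected CpG was at least 0.6, which held for 8198 of 16457 (49.8%). Promoters outside the end windows of their gene were included. The Tasor promoter, for example, was overlapped in both E13.5 lists, while the end windows of Tasor had 0 kb covered there. How many promoters lie outside was not counted. Peaks overlapped 745 promoters (4.53%) in E13.5 het, 984 (5.98%) in E13.5 KO, 828 (5.03%) in E16.5 het and 783 (4.76%) in E16.5 KO. They overlapped 845 (5.13%) in P0 het, 928 (5.64%) in P0 KO, 735 (4.47%) in P3 het and 867 (5.27%) in P3 KO. CpG-rich promoters accounted for 170 of these in E13.5 het and 308 in E13.5 KO. At E16.5 they accounted for 36 in each genotype, at P0 for 68 in het and 29 in KO, and at P3 for 19 and 24. CpG-poor promoters under a peak numbered between 575 (E13.5 het) and 899 (P0 KO). At E13.5 the CpG-rich share of overlapped promoters was thus 22.8% in het and 31.3% in KO, and it was at most 8.05% (P0 het) in the later lists.

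**Figure D3:**
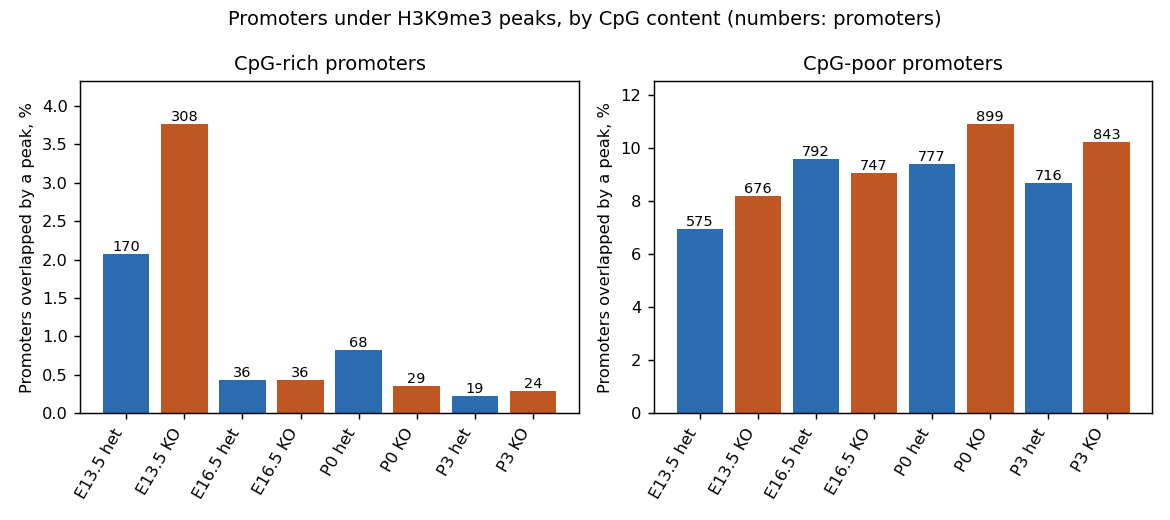
Share of CpG-rich (left, of 8198) and CpG-poor (right, of 8259) promoters overlapped by a peak (y axes, %, on different scales) in each list, het in blue and KO in orange, with the number of promoters above each bar. CpG-rich promoters are overlapped most in the 2 E13.5 lists, with 308 in KO and 170 in het, and next in P0 het, with 68.

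The 2 E13.5 lists shared 133 CpG-rich promoters, 78.2% of those in het and 43.2% of those in KO. Another 175 were overlapped in KO only and 37 in het only. Of the 133, 97 were overlapped in no later list. They included Mael, Sycp1, Slc25a31 and Henmt1, which act in meiosis, in spermatids or on piRNAs, and the developmental regulators En1, Ihh, Dlx1, Dlx2, Ptf1a and Hoxd10. Genes of developmental transcription factors stood among the 175 KO-only promoters (Pou3f3, Lhx2, Lhx4, Lmx1b, Pax1 and Hoxd13) and among the 37 het-only ones (Pou3f2, Dmbx1, Hmx3, Hoxa11, Tbx20 and Sox21), and their share in either was not counted. At P0 the 2 lists shared 20 CpG-rich promoters, 29.4% of those in het and 69.0% of those in KO, with 48 overlapped in het alone and 9 in KO alone. Of the 48, 29 were overlapped in no other list, among them Casp9, Cdk13, Usp28 and the promoter of Dnajb11. Only 4 CpG-rich promoters were overlapped in all 8 lists: Olfr1055, Tcfl5, Cox19 and Ccdc110. With the longer 50% of each list the CpG-rich counts at E13.5 were 80 in het and 175 in KO. The promoters named here were chosen after their values were seen.

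Both strands of the promoters were searched for CACGTG, the E-box that Max dimers bind, and for TCCCGC, the core of E2F6 sites. Both kinds of factor are known for repression of germline genes. CACGTG was present in 7.97% of all promoters and 11.5% of CpG-rich ones. It was present in 24 of the 97 CpG-rich promoters overlapped at E13.5 in both genotypes and never later (24.7%), and in 20 of the 175 that were KO-only at E13.5 (11.4%). TCCCGC was present in 26.4% of all promoters, 43.8% of CpG-rich ones, 37.1% of the 97 and 47.4% of the 175. The match of CACGTG was thus more frequent in the shared E13.5 set than in CpG-rich promoters at large, and that of TCCCGC was not. The E13.5 set was not alone in this. Of CpG-rich promoters overlapped in both genotypes, CACGTG was in 5 of 20 at P0 (25.0%) and 5 of 13 at P3 (38.5%). At E16.5 it was in 2 of 26 (7.69%), and these later sets are small. A match does not show binding. Mael, Sycp1, Slc25a31 and Ddx4 each held both motifs, while Hoxa6, Vmn2r60 and Olfr502 held neither.

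Germline genes stood out at E13.5. Of 46 genes of the germline program (meiosis, piRNA pathway and spermatid genes), 16 (34.8%) were called in E13.5 het and 22 (47.8%) in E13.5 KO, where 11.4% and 14.3% of all genes were. In the 6 later lists 6 to 9 were called (13.04% to 19.6%), where 12.9% to 16.9% of all genes were. No germline gene was het-only at E13.5 and 6 were KO-only: Terb2, Sycp3, Rpl10l, Tdrd9, Majin and Tdrd1. Calls at E13.5 lay mostly at the start. Among the 40 germline genes with a known strand, the start window was called in 14 and the last-base window in 3 in E13.5 het, and in 18 and 5 in E13.5 KO. Later lists called 1 to 5 starts and 4 to 6 ends. Of the 17 germline promoters overlapped in an E13.5 list, 10 held CACGTG (58.8%), and over all 40 the count was 14 (35.0%). With the longer 50% of each list, 8 germline genes were called in E13.5 het and 11 in E13.5 KO. Of all 20665 genes, 1381 and 1767 were then called.

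A set of 9 was called in both E13.5 lists and in no later list. Mael, which protects germ cells from transposons, had 1.99 kb covered in het and 1.87 kb in KO. Sycp1, a transverse filament protein of the synaptonemal complex, had 1.26 and 1.55 kb, and Sycp2, of its lateral element, 1.26 and 1.35 kb. Slc25a31, a germline ADP/ATP carrier, had 1.001 and 1.89 kb. Of these 4 genes Sycp2 differed least between the genotypes and Slc25a31 most. The piRNA factors Asz1 and Mov10l1 had 1.86 and 1.325 kb and 0.990 and 1.76 kb in het and KO. Tex101 had 1.42 and 1.57 kb, the meiosis gene Mei1 1.001 and 1.30 kb, and the testis tubulin gene Tuba3a 1.001 and 2.001 kb. KO cover was the greater of the pair in 7 of these 9 genes, the exceptions being Mael and Asz1.

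Another 3 germline genes were called in all 8 lists. Brdt, a bromodomain protein of spermatocytes and spermatids, had 1.29 kb (het) and 1.70 kb (KO) covered at E13.5 and 0.0480 to 0.861 kb in the later lists. Tdrkh, a Tudor protein of the piRNA pathway, had 0.787 and 0.840 kb at E13.5 and 0.0560 to 0.571 kb later. Tuba3b, in het and then KO, had 2.001 and 2.001 kb at E13.5, and at the later stages 0.694 and 0.633, 0.768 and 0.547, and 2.92 and 2.79 kb. The site differed: cover of Tuba3b lay at the start at E13.5, at the last base at E16.5 and P0, and at both at P3. The meiosis gene Mei4 had no cover at E13.5 and was called in the 6 later lists, with 2.001 kb in each het list. Its KO cover was 0.475 kb at E16.5, then 0.830 kb and 2.001 kb after birth. All cover of Mei4 lay at its last base, whereas the genes called at E13.5 and never later were covered at the start. Tdrd9, a piRNA pathway helicase, had 2.60 kb in KO and 0 kb in het at E13.5, and 1.06 to 2.001 kb in the later lists. The E13.5 KO cover of Tdrd9 lay at both the start and the last base, and the later cover at the last base alone.

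Ddx4 is the gene also called Mvh, a germ cell RNA helicase, and its name is shared by the reporter. In the het lists its windows had 2.21, 3.29, 2.001 and 3.37 kb covered in stage order. In the KO lists they had 3.32, 0, 1.28 and 1.79 kb. The het lists thus had the longer cover at E16.5, P0 and P3 and the KO list at E13.5. Whether the transgene holds Ddx4 sequence that could add reads there is not stated in the labels and was not tested. The windows of Morc1 itself were called in the P3 KO list only, over 0.459 kb, and a peak list holds no expression by which the knockout could be checked.

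Among the 20 gene lists, the Hox genes had the widest gap between the E13.5 lists. Of 39 Hox genes, which set position along the body axis, 12 (30.8%) were called in E13.5 het and 32 (82.1%) in E13.5 KO, with 20 KO-only and none het-only. Among all genes, 11.4% (het) and 14.3% (KO) were called at E13.5. In the later lists 1 (2.56%, het) or 2 (5.13%, KO) Hox genes were called, where 12.9% to 16.9% of all genes were. Hoxa6 had 0.522 kb covered in E13.5 het and 3.53 kb in E13.5 KO, Hoxc11 0 and 3.22 kb, Hoxc12 0 and 2.31 kb, and Hoxb8 0 and 2.001 kb. Hoxb2 had 0.970 and 4.002 kb. Cover was longer in het for Hoxa11 (1.40 kb against 0.614 kb in KO), Hoxc13 (1.49 against 0.682 kb) and Hoxb4 (0.699 against 0.430 kb). Hoxa7 was called in all 8 lists, with 0.149 to 0.669 kb after E13.5. The Hox genes lie in 4 clusters and neighbours share windows and peaks, so these 39 are far fewer independent sites. With only the longer 50% of each list kept, the E13.5 counts were 0 in het and 19 in KO. Over all 20665 genes they were 1381 and 1767.

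Imprinted genes were called most at E13.5 too. Of 53 genes, 15 (28.3%) were called in E13.5 het and 23 (43.4%) in E13.5 KO, with 1 het-only and 9 KO-only. In these 2 lists 11.4% and 14.3% of all genes were called. Later lists called 7 to 13 imprinted genes (13.2% to 24.5%), where 12.9% to 16.9% of all genes were called. After birth the imprinted shares, 13.2% to 18.9%, lay around those of all genes, 14.5% to 16.9%. Peg10, Inpp5f, Igf2 and Slc22a2 were called in all 8 lists. The growth factor gene Igf2 had 2.001 kb covered at E13.5, E16.5 and P3 in both genotypes, and 1.02 kb (het) and 0.954 kb (KO) at P0. Peg10, a retrotransposon-derived gene of the placenta, had 2.001, 1.10, 1.31 and 0.499 kb in the het lists and 1.56, 1.075, 1.35 and 0.505 kb in the KO lists, in stage order. Its neighbour Sgce had 2.001 and 0.891 kb in the embryonic het lists, 1.46 and 0.604 kb in the embryonic KO lists and 0 kb after birth. Snurf had 4.002 kb in both E13.5 lists, 2.001 and 1.66 kb at E16.5, 2.001 kb in both P0 lists, and at P3 0.346 kb in KO and 0 kb in het. Peg3 and Usp29, which share a start region, had 0.821 and 0.724 kb in E13.5 het, 0.829 and 0.732 kb in E13.5 KO, and 0 kb later. In Peg10, Sgce, Snurf, Peg3 and Usp29 the cover was longest at E13.5. Other genes of the list were covered most at later stages. Slc22a2 had 0.432 kb in E13.5 het and 2.001 kb in P3 KO. Calcr, the calcitonin receptor gene, had 0.468, 1.965, 0.985 and 0.108 kb in the KO lists in stage order, and in het 1.63 kb at E16.5 and 0 kb elsewhere. Herc3 was called in the 4 postnatal lists only, over 0.974 to 1.23 kb. At P3 Rtl1 had 2.001 kb (het) and 1.27 kb (KO), with 0.628 kb in E13.5 KO. Gpr1 had 0.0700 kb in E16.5 het and 0.192 kb in P0 het.

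Large receptor families followed another course. For comparison, 11.4% (het) and 14.3% (KO) of all genes were called at E13.5, and 13.6% and 12.9% at E16.5. After birth these shares of all genes were 14.5% and 16.3% at P0, and 15.5% and 16.9% at P3. Of 1104 olfactory receptor genes, 258 and 267 were called at E13.5 (23.4% in het, 24.2% in KO) and 468 and 445 at E16.5 (42.4%, 40.3%). At P0 the counts were 435 and 450 (39.4%, 40.8%), and at P3 389 and 428 (35.2%, 38.8%). All 8 lists called 206 of them. Of 354 vomeronasal receptor genes, 117 (33.1%, E13.5 het) to 151 (42.7%, E16.5 het) were called, and 92 in all 8 lists. Protocadherin genes, taken by a symbol that starts with Pcdh, code for neuronal cell adhesion proteins. Of 67, 32 (47.8%, het) and 29 (43.3%, KO) were called at E13.5, and 21 (31.3%) in both lists at E16.5. At P0 the counts were 7 (10.4%) and 11 (16.4%), and at P3 10 (14.9%) and 7 (10.4%), near or below the shares of all genes. Beta-defensin genes were called most at P0, with 21 (het) and 22 (KO) of 42. Ribosomal protein genes were called in 1 (1.05%, P0 KO) to 9 (9.47%, E13.5 KO) of 95, a lower share than that of all genes in each list. Of 14 housekeeping genes, 0 or 1 was called in each list.

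**Figure D4:**
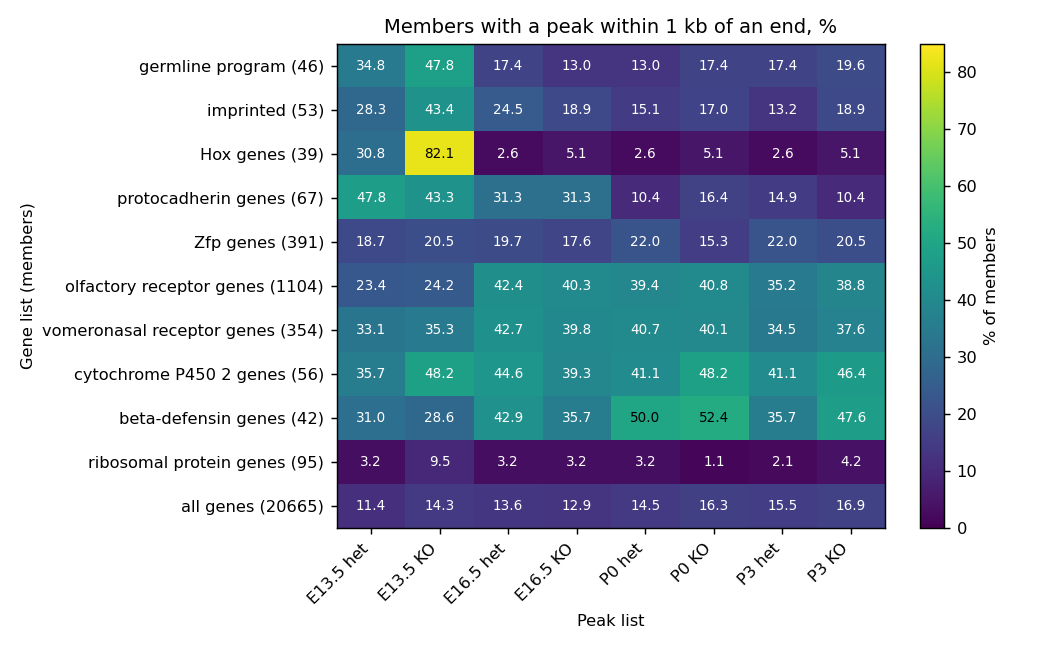
Share of the members of 10 gene lists and of all genes (rows, number of members in brackets) called in each peak list (columns); colour and printed value give the percentage of members. Hox genes reach 82.1% in E13.5 KO against 30.8% in E13.5 het, germline and imprinted genes are highest in the E13.5 lists, and olfactory receptor genes are higher from E16.5 on.

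Genes of the Zfp family, most of which encode DNA-binding zinc finger proteins, leaned to het after birth. Of 391, 86 (22.0%) were called in P0 het and 60 (15.3%) in P0 KO, with 34 het-only and 8 KO-only. At P3, 86 (22.0%) and 80 (20.5%) were called, with 22 het-only and 16 KO-only. The shares of all genes called were 14.5% (P0 het), 16.3% (P0 KO), 15.5% (P3 het) and 16.9% (P3 KO). Only in P0 KO was the Zfp share below that of all genes. At these stages KO-only genes were the more frequent over all genes. At E13.5 the counts were 8 het-only and 15 KO-only, and at E16.5 11 and 3. There were 10 family members that were het-only at both P0 and P3, and 2 that were KO-only. Zfp605 and Zfp977 had 2.001 kb covered in all 4 embryonic lists. After birth Zfp605 had 2.001 kb in both het lists and 0 kb in both KO lists, and Zfp977 had 1.09 kb (P0) and 1.68 kb (P3) in het and 0 kb in KO. Zfp654 had 0.655, 1.60 and 1.93 kb in the het lists from E16.5 on, and 0 kb in E13.5 het and in the KO lists.

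Most genes called in 1 genotype only at P0 were not so at P3, and those that were had mostly the same direction. There were 130 genes (0.629%) het-only at both stages, which is 30.4% of the het-only genes of P0 and 26.4% of those of P3. There were 185 (0.895%) KO-only at both, 23.5% and 23.8% of the KO-only genes of P0 and P3. The direction changed for 52, so 85.8% of the genes called in 1 genotype only at both stages had the same direction. For the other 5 pairs of stages this share lay between 34.1% (E13.5 with E16.5) and 58.8% (E13.5 with P0). Recurrence of a difference over 3 stages was rare: 13 genes were het-only at 3 stages and 28 KO-only. Prelid2 was het-only at all 4 stages and Togaram2 KO-only at all 4. Prelid2 had 1.001, 1.001, 1.64 and 1.77 kb covered in the het lists in stage order and 0 kb in KO. Togaram2 had 1.001, 1.001, 1.53 and 1.001 kb in the KO lists and 0 kb in het.

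Among the het-only genes of P0 and P3, olfactory receptor genes led the ranking by covered length. Olfr294 had 3.01 kb covered in both het lists, Olfr502 2.945 kb and Olfr1298 2.94 kb, with 0 kb in the 6 other lists. In these genes both windows, which overlap because the gene is short, were covered whole. Olfr38 had 2.70 kb at P0 and 2.80 kb at P3 in het, 0 kb in KO, and 1.57 and 1.58 kb in het and KO at E13.5. Olfr1198, Olfr648 and Olfr44 were also called in both E16.5 lists, where they had 0.346 to 1.64 kb. Akr1c14, a steroid-metabolising aldo-keto reductase, Cd200r3, a CD200 receptor-like gene, and Dhcr7, the last enzyme of cholesterol synthesis, had 2.001 kb in both het lists and 0 kb elsewhere. The RefSeq promoter of Akr1c14 lies outside its end windows, and all 300 bases of it were covered in P0 het, P0 KO and P3 KO, so the gene was het-only at its last base alone. Cover of Cd200r3 and Dhcr7 also lay at the last base alone, and their promoters were overlapped in no list. Of the 130 genes, 21.5% were olfactory or vomeronasal receptor genes and 7.69% Zfp genes, against 7.06% and 1.89% of all genes. Among all genes called in het, receptor genes made up 19.3% at P0 and 16.0% at P3, and Zfp genes 2.86% and 2.69%.

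The KO-only genes of P0 and P3 were led by Ell2, an elongation factor for RNA polymerase II. It had 2.001 kb in both KO lists after birth and 0 kb in het, while at E16.5 both genotypes had cover (1.14 kb het, 1.20 kb KO). Cyp11a1, which starts steroid synthesis and marks Leydig cells, had 0.591, 2.001 and 1.73 kb in KO at E16.5, P0 and P3 and 0 kb in the 4 het lists and in E13.5 KO. Borcs5 had 1.72 and 2.001 kb, Tcf7l2, a Wnt pathway transcription factor, 1.64 and 2.001 kb, and Dag1, the dystroglycan gene, 1.545 and 1.97 kb at P0 and P3 in KO. Icam1, Olfr96 and Clec5a had 1.43 to 1.87 kb, and all 6 had 0 kb in the other lists. Cover of Ell2, Cyp11a1, Borcs5, Tcf7l2, Dag1 and Icam1 lay at the last base alone, and their promoters were overlapped in no list. Clec5a was covered at the start and Olfr96 in both windows. Mepe had 1.17 to 1.91 kb in the 4 embryonic lists of both genotypes as well. Klri2, Olfr1082, Ccdc63, Asah2, Mrgprb5 and Vmn1r214 were KO-only at E13.5, P0 and P3 and called in both lists at E16.5. Of the 185 genes, 12.4% were receptor genes and 1.08% Zfp genes, against 17.6% and 1.79% of all genes called in P0 KO and 16.1% and 2.297% in P3 KO.

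**Figure D5:**
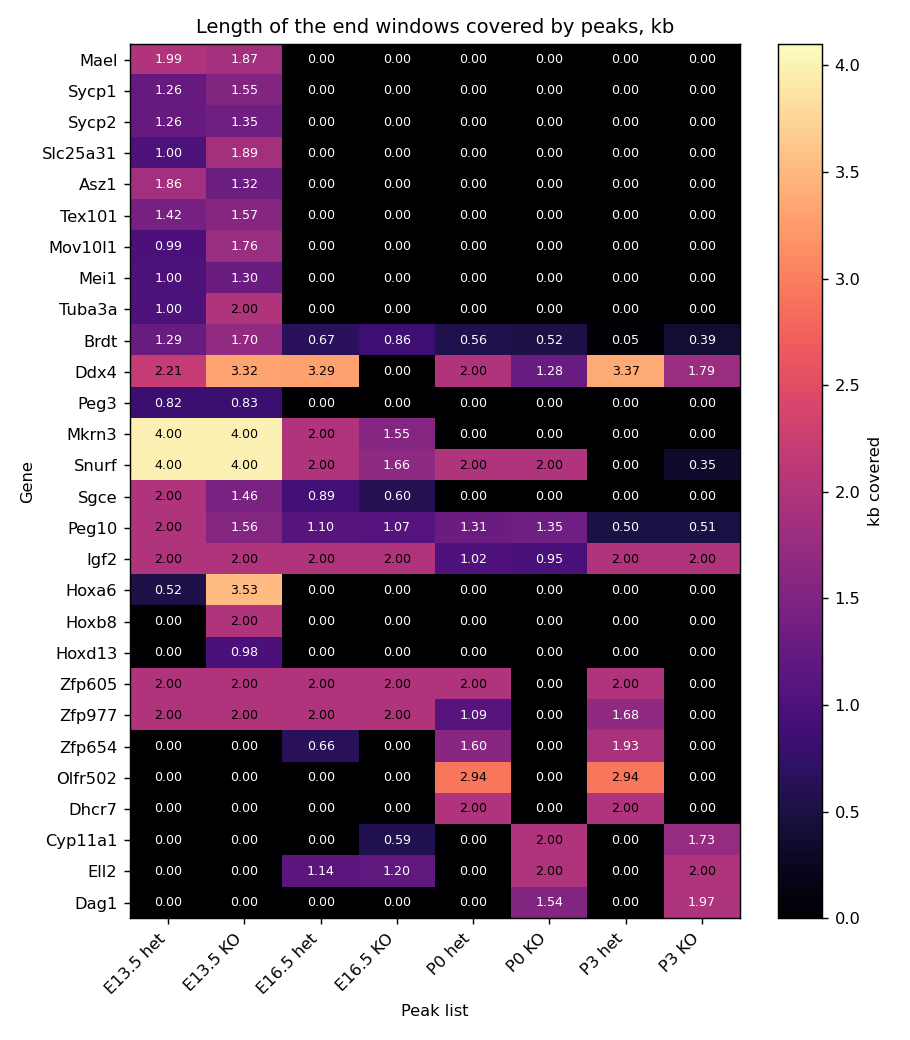
Length of the end windows covered by peaks (kb, colour and printed value, of at most 4.002 kb) for 28 genes (rows) in the 8 lists (columns). Mael to Tuba3a have cover in the E13.5 lists only, Zfp605 to Dhcr7 have postnatal cover in het and not in KO, and Cyp11a1 to Dag1 have it in KO and not in het.

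Of 32 genes of H3K9 methylation and silencing, 1 (3.13%, P0 het) to 5 (15.6%, E16.5 KO) were called, against 14.5% and 12.9% of all genes in these lists. Morc2b was called in all 8 lists, over 1.42 to 2.001 kb. Atf7ip, the partner of Setdb1, had 1.65, 0.471, 0 and 1.33 kb in the het lists and 2.401, 0.860, 0 and 0.451 kb in the KO lists, in stage order. Setdb1 had 2.001 kb in both P3 lists, 0.734 kb in E13.5 het and 0 to 0.632 kb elsewhere. Of 25 gonocyte and spermatogonia genes, 3 were called in each E13.5 list, where 11.4% (het) and 14.3% (KO) of all genes were. The E13.5 counts were thus close to the shares of all genes. Later, 1 was called in P3 het (Sall4, 1.08 kb) and 0 in the other lists. These later counts were below the shares of all genes, 12.9% to 16.9%. Of markers of other testis cells, the lists called 1 to 3 of 7 Sertoli genes (14.3% to 42.9%), 1 or 2 of 8 Leydig and peritubular genes (12.5% to 25.0%), and 1 or 2 of 6 endothelial and macrophage genes (16.7% to 33.3%), against 11.4% to 16.9% of all genes. Wt1, Lhcgr and Cd68 were called in all 8 lists. Of the germ cell markers, Ddx4 was called in 7 lists, Mael in the 2 E13.5 lists and Dazl in none. These lists hold no expression, so they cannot check the labelled cell type.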

How the data were processed

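The data were 8 lists of H3K9me3 peaks, 1 per genotype and stage, each with chromosome, start and end as the authors deposited them, without header, score or replicate. Per the submitters' processing notes the build was mm10, and bcl2fastq 2.20, cutadapt 1.18, Bowtie2 2.3.4.1, deepTools 3.5.0 and HOMER 4.10 were used, with no role given. Peak settings, the control, pooling of replicates and read depth are not given in the sources used here. Peak number and length depend on them.

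Peaks on chromosomes 1 to 19 were set against windows of 2001 bp around the first and last base of RefSeq protein-coding genes (GRCm38.p6) with Python 3.11.15, numpy 2.4.6 and pandas 2.3.3. Member counts were checked with bedtools 2.31.1 and on planted peaks. Strand and promoter sequence were matched by gene identifier for 16457 of 20665 genes. Starts and ends were told apart only there. Covered lengths are the sum over both windows, with overlapping windows counted once. A covered length alone does not show whether the start or the last base was covered. No fold change, error or p-value was computed between groups.

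The members, the 20 gene lists and the tests were chosen with earlier results of these data known, so patterns already seen there are no independent support. Genes were named, apart from provisional symbols, by these rules: up to 10 called in all 8 lists, by cover; up to 10 per direction called in 1 genotype at 3 or more stages; up to 10 per direction at both P0 and P3, by cover; up to 8 called only after birth or only before it; list members called in at least 6 lists or in 1 genotype only at several stages; and Morc1 and Ddx4. Other germline, Hox, imprinted and Zfp genes and promoters were named after their values were seen. Alternatives were windows of 500 bp and 2 kb, an overlap of 500 bp, the longer 50% of each list, equal peak numbers and stricter sharing.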

Additional observations from a re-analysis of the deposited data

Results flagged for a closer look

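At E16.5 there were 0.570 KO-only genes per het-only gene, while at E13.5, P0 and P3 KO-only genes were the more numerous. The difference between stages was not tested, since each group has 1 list.

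CpG-rich promoters under a peak were 2.34 times as many in P0 het as in P0 KO (68 against 29), the opposite order to E13.5 (170 against 308). This difference was not tested either. With the longer 50% of each list the P0 counts were 31 and 16, and with a CpG ratio of at least 0.75 they were 45 and 15.

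The X chromosome lies outside the rule and entered no comparison. Of its 966 protein-coding genes, 45 (4.66%) were called at an end in E13.5 het, and the same number in P3 het. The most were called in P0 KO, with 64 (6.63%).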

How the results depend on the processing

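Recomputed, 1 choice at a time, were the counts of peaks and genes, recurrence, het-only and KO-only genes and peaks, the P0 and P3 directions, the start and last-base share, and the germline, Hox, Zfp and CpG-rich promoter counts. Steps between stages, levels by distance, motif shares, other gene lists and covered lengths were not. With windows of 500 bp or 2 kb, an overlap of at least 500 bp, equal peak numbers, or at least 50% of a peak covered before it counted as shared, every count of peaks, genes, recurrence and direction over all genes stayed within 1.5 times its value. The share of last-base calls among start and last-base calls, 59.5%, was 60.2% with 500 bp, 57.4% with 2 kb and 58.5% for genes with no other gene start or end within 5 kb. Without the E13.5 KO list, chosen after seeing the data, 1127 genes were called in all 7 others.

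Keeping the longer 50% of each list lowered counts by construction. Peaks at gene ends were then 1367 and 1707 at E13.5, 1862 and 1755 at E16.5, 1878 and 2100 at P0, and 1948 and 2194 at P3 in het and KO. Called genes were 1381 and 1767 at E13.5, 1757 in E16.5 KO, 1862 and 2082 at P0, and 1973 and 2218 at P3. Genes called at all 4 stages were 799 in het and 870 in KO. Het-only genes were 149 (E13.5) and 293 (P3), and KO-only genes 535 (E13.5), 126 (E16.5) and 523 (P0). Genes het-only and KO-only at both P0 and P3 were 79 and 115. Unshared peaks were 104 (het) and 410 (KO) at E13.5, 84 (KO) at E16.5 and 224 (het) at P3.

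The order of het-only and KO-only genes at each stage was the same under all 5 of these alternatives to windows, overlap and peaks. Het-only Zfp genes outnumbered KO-only ones at P0 and P3 under all 5. At E13.5 the order was the opposite with equal peak numbers (12 het-only, 11 KO-only). At E16.5 it was the opposite with 500 bp windows or overlap (5 het-only, 6 KO-only). There it was tied with the longer 50% of each list (4 het-only, 4 KO-only). With 2 kb windows E16.5 had 6 het-only and 5 KO-only Zfp genes, and with equal peak numbers 10 and 5. No paired analysis was possible because each list stands for a group and names no replicate, and leaving out a replicate could not be run for the same reason. Depth sets how many weak peaks a list holds, and it is unknown here.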
